A study of Mus musculus with 4 samples.

Results

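Deaf1 occupancy was examined at the genes for mitochondrial ribosomal proteins in C2C12, a mouse cell line of myoblasts, which divide and can fuse into muscle fibres. The genes were chosen by name: all protein-coding genes of the GRCm38 annotation (chromosomes 1 to 19, X and Y) whose symbol is Mrpl or Mrps followed by a digit. The rule found 78 genes among 21887, of which 49 carry a large-subunit symbol (Mrpl) and 29 a small-subunit symbol (Mrps). All 78 are called mitochondrial ribosomal protein genes below by their symbol alone. Whether each product is part of the ribosome was not checked. The study applied chromatin immunoprecipitation and sequencing (ChIP-seq) to untreated, unmodified C2C12 cells, with 2 libraries made with an antibody to Deaf1 and 2 input libraries made without antibody. All 4 libraries come from the same line and growth conditions, so there is no second condition and no change in occupancy to measure, and no label says whether the pairs came from separate cultures. Peak lists were analysed for each Deaf1 library, together with 1 combined list of 1550 regions shared by both, called reproducible regions below. The name stands for a peak in both libraries. The list was used whole, with no limit on its reproducibility score unless one is stated. Separate values for the inputs were not analysed here. Peaks on chromatin cannot check the identity of the cells, and no marker of the cell type was tested.

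The mitochondrial ribosome makes the few proteins that mitochondrial DNA encodes, which are core subunits of the respiratory chain and of ATP synthase. Its ribosomal RNAs are encoded in the mitochondrion, whereas all its proteins are encoded in the nucleus, made in the cytosol and imported. Muscle depends heavily on this machinery. Deaf1 is a transcription factor with a SAND domain, which is known to bind DNA with the core letters TTCG. A gene was counted as having a region when a row of the list lay within 1 kb of the first or last base of the gene's annotated span.

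Promoter sequences of 6 of these genes are shown because the Deaf1 regions lie across their transcription starts, and because the letters under the peaks are described further on. They are those with a reproducible region covering most of the RefSeq promoter window (GRCm38.p6, 250 bases before to 50 after the start), after setting aside windows that lie almost wholly inside a neighbouring gene. Each is printed from 5′ to 3′ on the gene's strand, ends at the base before the transcription start, and leaves out any part inside another annotated gene. Capitals mark TTCG or CGGAAG on either strand, the second being the core letters that the ETS family of transcription factors is known to bind. The stretches lie at chr19:6057756-6057946 (Mrpl49, minus strand, the whole gap to its neighbour Fau), chr3:32736756-32737005 (Mrpl47, minus), chr14:20393635-20393884 (Mrps16, minus), chr5:129715247-129715496 (Mrps17, plus), chr5:96209865-96210114 (Mrpl1, plus) and chr6:39810937-39811186 (Mrps33, minus).
Mrpl49: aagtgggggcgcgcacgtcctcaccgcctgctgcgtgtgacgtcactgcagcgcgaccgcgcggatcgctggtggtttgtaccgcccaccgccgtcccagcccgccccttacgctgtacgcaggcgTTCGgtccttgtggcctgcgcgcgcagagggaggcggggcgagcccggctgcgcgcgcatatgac
Mrpl47: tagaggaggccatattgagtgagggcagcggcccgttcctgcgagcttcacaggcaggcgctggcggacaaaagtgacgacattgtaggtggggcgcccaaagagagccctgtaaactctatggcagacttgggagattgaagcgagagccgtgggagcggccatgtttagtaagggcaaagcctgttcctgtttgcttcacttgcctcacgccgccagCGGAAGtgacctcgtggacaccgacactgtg
Mrps16: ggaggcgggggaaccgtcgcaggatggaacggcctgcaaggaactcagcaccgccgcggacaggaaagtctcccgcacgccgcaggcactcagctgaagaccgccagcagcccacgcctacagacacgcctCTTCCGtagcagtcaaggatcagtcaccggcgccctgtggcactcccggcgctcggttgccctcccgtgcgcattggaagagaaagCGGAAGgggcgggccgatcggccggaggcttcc
Mrps17: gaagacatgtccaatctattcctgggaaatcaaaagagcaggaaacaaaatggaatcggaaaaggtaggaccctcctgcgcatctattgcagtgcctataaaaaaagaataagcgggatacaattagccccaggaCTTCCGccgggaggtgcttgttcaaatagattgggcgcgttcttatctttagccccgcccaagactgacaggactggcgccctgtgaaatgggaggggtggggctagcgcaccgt
Mrpl1: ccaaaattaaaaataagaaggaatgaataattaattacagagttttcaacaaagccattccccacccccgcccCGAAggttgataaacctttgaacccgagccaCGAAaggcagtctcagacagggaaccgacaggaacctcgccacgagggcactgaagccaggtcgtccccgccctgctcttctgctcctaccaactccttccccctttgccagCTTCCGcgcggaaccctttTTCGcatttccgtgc
Mrps33: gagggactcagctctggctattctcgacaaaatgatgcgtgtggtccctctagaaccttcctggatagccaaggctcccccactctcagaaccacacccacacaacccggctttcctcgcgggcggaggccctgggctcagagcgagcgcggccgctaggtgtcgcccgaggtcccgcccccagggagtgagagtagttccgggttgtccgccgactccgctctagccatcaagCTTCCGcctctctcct
The Mrpl49 stretch holds 1 TTCG, Mrpl1 holds 3, and the other 4 hold none. CGGAAG stands once in the stretches of Mrpl47, Mrps17, Mrpl1 and Mrps33, 2 times in Mrps16 and nowhere in Mrpl49.

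Reproducible Deaf1 regions were several times more frequent at mitochondrial ribosomal protein genes than at other genes. They lay at 26 of the 78 genes (33.3%), against 1503 of 21809 other protein-coding genes (6.89%). Read alone, the peaks of replicate 1 lay at the same number of genes, 26 (33.3%, against 7.43% of other genes), and those of replicate 2 at 37 (47.4%, against 11.1%). The shares were close for both symbols: 17 of 49 Mrpl genes (34.7%) and 9 of 29 Mrps genes (31.0%) had a reproducible region. The symbol does not always give the subunit, as at Mrps18a below. Of genes whose number is shared with a bacterial ribosomal protein (up to 36 in the large and 21 in the small subunit) 15 of 44 had one (34.1%), and of genes numbered above these 11 of 34 (32.4%). Genes are not replicates, so these shares are descriptions and were not tested. At a score of at least 540 in the combined list, an irreproducible discovery rate (IDR) of at most 0.05, 12 of the 78 genes (15.4%) had a region, against 3.09% of other genes.

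Mitochondrial ribosomal protein genes differ from the average gene in ways that go with Deaf1 regions. A CpG-rich promoter (at least 50% GC and an observed-to-expected CpG ratio of at least 0.6) was listed for 55 of them (70.5%), against 36.4% of other genes. An end of another protein-coding gene lay within 1 kb of an end of 44 (56.4%), against 24.7%. With only CpG-rich promoters compared, 17 of 55 (30.9%) had a reproducible region, against 12.6% of 7949 other genes. Among genes with a close neighbour the shares were 34.1% of 44 and 15.2% of 5382, and among genes without one 32.4% of 34 and 4.16% of 16427. The gap was narrowest where both features were required, at 11 of 35 (31.4%) and 560 of 2815 (19.9%). With a CpG-rich promoter and no close neighbour the shares were 6 of 20 (30.0%) and 8.57%. Of the 14 whose listed promoter was not CpG-rich, 6 had a region (42.9%), against 2.28% of 9474. Over these classes the share ran from 30.0% to 42.9% among mitochondrial ribosomal protein genes and from 2.28% to 19.9% among other genes. The classes overlap, and the smallest hold only 14 and 20 of the mitochondrial ribosomal protein genes. Another 9 of these have no listed promoter and are in neither CpG class. The part of these features in the overall difference was not tested.

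**Figure D1:**
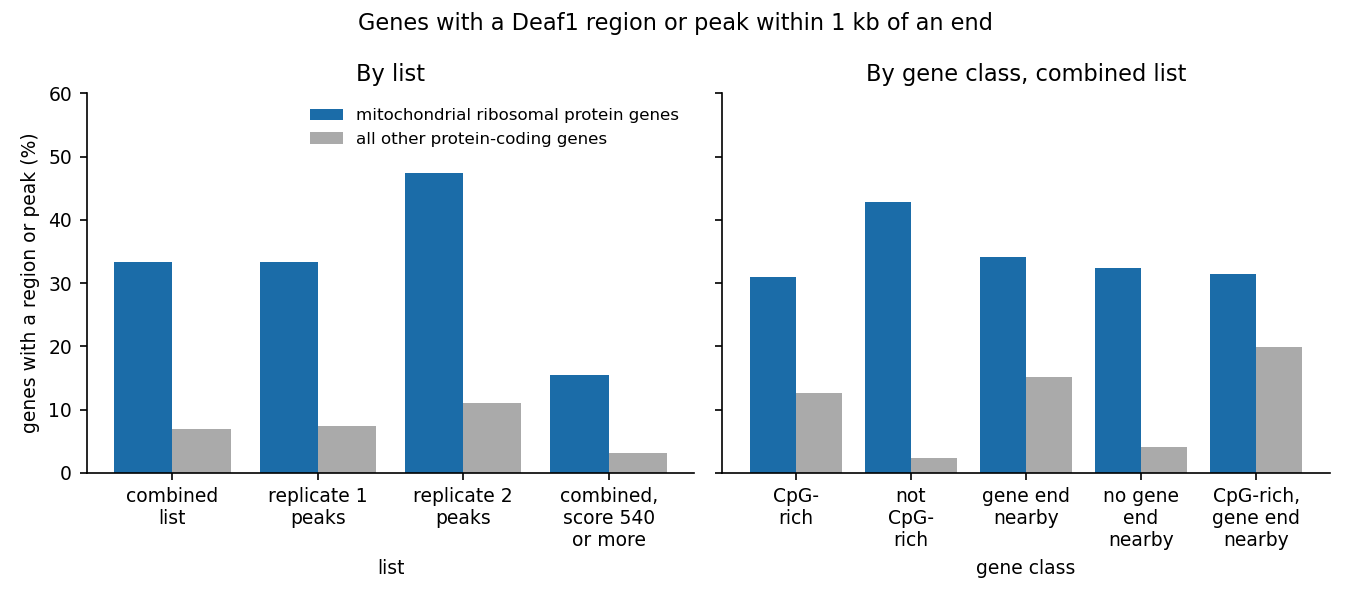
Share of genes (vertical axes, percent) with a Deaf1 region or peak within 1 kb of a gene end, for mitochondrial ribosomal protein genes (blue) and all other protein-coding genes (grey), by peak list (left) and by gene class with the combined list (right). The blue bars stand above the grey ones throughout, at 33.3% and 6.89% with the combined list, and are closest for CpG-rich genes with a gene end nearby, at 31.4% and 19.9%.

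The strength of these regions was ordinary. All 26 genes had exactly 1 region each, made, like 94.4% of other gene-end regions, of 1 peak in each replicate. Their median fold enrichment, the authors' value for ChIP signal over the local background, taken at each summit and averaged over the libraries, was 8.98, against 8.04 for 1223 other regions at gene ends. Of the 26 regions, 15 (57.7%) were above that median and 2 (7.69%) were in the top 10% of all 1550 regions. The regions were narrow, with a median width of 157.5 bp (114 to 478 bp), against 190 bp for other gene-end regions. A score of at least 540 was reached by 12 (46.2%), against 42.1% of other gene-end regions.

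Among the large-subunit genes, Mrpl43 and Mrpl44 had the highest mean folds, which differ by less than their SDs. The Mrpl43 region (chromosome 19, 45006388 to 45006561, on the minus-strand start of the gene) had a fold enrichment of 15.3 in replicate 1, where 42 ChIP fragments covered the summit (95% exact Poisson interval 30.3 to 56.8), and of 18.5 in replicate 2, with 56 fragments (42.3 to 72.7). The mean was 16.9 ± 2.2 (SD, n = 2), rank 73 of 1550, and the IDR was 0.00878, the only one of the 26 under 0.01. Both libraries were high here. Mrpl44, whose product is related to the RNase III family, had its region on chromosome 1 from 79775991 to 79776223. Its fold enrichment was 20.7 in replicate 1 and 9.25 in replicate 2, a mean of 15.0 ± 8.1 (SD, n = 2). The fragments at its summit were nearly equal, 57 (43.2 to 73.9) and 53 (39.7 to 69.3), while the local background was 1.80 fragments in replicate 1 and 4.84 in replicate 2. The replicates therefore differ at Mrpl44 in the denominator of the ratio more than in the ChIP signal.

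Mrpl21, which encodes the counterpart of a bacterial large-subunit protein, had 13.6 and 9.24 in replicates 1 and 2, from 37 and 44 fragments (mean 11.4 ± 3.1, SD, n = 2; chromosome 19, 3282821 to 3283093). At Mrpl20 the values were 8.80 and 13.7, from 31 and 42 fragments (mean 11.3 ± 3.5, SD, n = 2; chromosome 4, 155803451 to 155803662). At Mrpl49 they were 14.6 and 6.05, from 40 and 46 fragments (mean 10.3 ± 6.1, SD, n = 2; chromosome 19, 6057640 to 6058117). The drop between replicates at Mrpl49 again went with the background, 1.80 fragments in replicate 1 and 6.77 in replicate 2. Mrpl3 had 10.7 and 8.97, from 29 and 34 fragments (mean 9.84 ± 1.23, SD, n = 2; chromosome 9, 105053176 to 105053302). Mrpl47 had 10.3 and 8.72, from 38 and 33 fragments (mean 9.49 ± 1.10, SD, n = 2; chromosome 3, 32736748 to 32737115). Mrpl53 had 9.99 and 8.42, from 27 and 40 fragments (mean 9.21 ± 1.11, SD, n = 2; chromosome 6, 83109001 to 83109140). These last 3 genes cannot be put in order, since their means differ by less than the SDs.

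The genes with an Mrps symbol and the strongest regions lay in the same range. Mrps34 had a fold enrichment of 10.7 in replicate 1 and 13.0 in replicate 2, from 29 (19.4 to 41.6) and 39 (27.7 to 53.3) fragments, a mean of 11.8 ± 1.6 (SD, n = 2) on chromosome 17 from 24895022 to 24895155. Mrps18a, whose product sits in the large subunit despite its symbol, was the steadiest, with 9.99 and 9.94 from 27 and 32 fragments (chromosome 17, 46110925 to 46111044). Mrps31 had 11.3 and 8.46 from 33 and 32 fragments (mean 9.90 ± 2.04, SD, n = 2; chromosome 8, 22411269 to 22411450). Mrps35 had 8.21 and 11 from 22 and 33 fragments (mean 9.61 ± 1.98, SD, n = 2; chromosome 6, 147042686 to 147042799). From Mrps34 down to Mrps35 the fragment intervals of all 4 genes overlap within each library.

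The other 14 genes with a reproducible region had mean fold enrichments from 3.76 to 9.08. They were Mrpl1, Mrpl2, Mrpl30, Mrps17, Mrpl33, Mrpl27, Mrps21, Mrps33, Mrpl58, Mrpl16, Mrps22, Mrpl12, Mrpl13 and Mrps16, in falling order. Mrpl58, which encodes a hydrolase that frees stalled mitochondrial ribosomes, had 9.08 in replicate 1 and 5.38 in replicate 2, from 32 and 46 fragments. Mrpl12, the counterpart of the bacterial stalk protein that recruits translation factors, had 6.67 and 5.83, from 19 and 33 fragments. The 2 weakest were Mrpl13, with 4.56 and 5.55, and Mrps16, with 3.54 and 3.97. Mrps16 rested on 15 fragments in replicate 1 and 26 in replicate 2, and both genes had the lowest score of the combined list, 121, an IDR of 0.511.

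**Figure D2:**
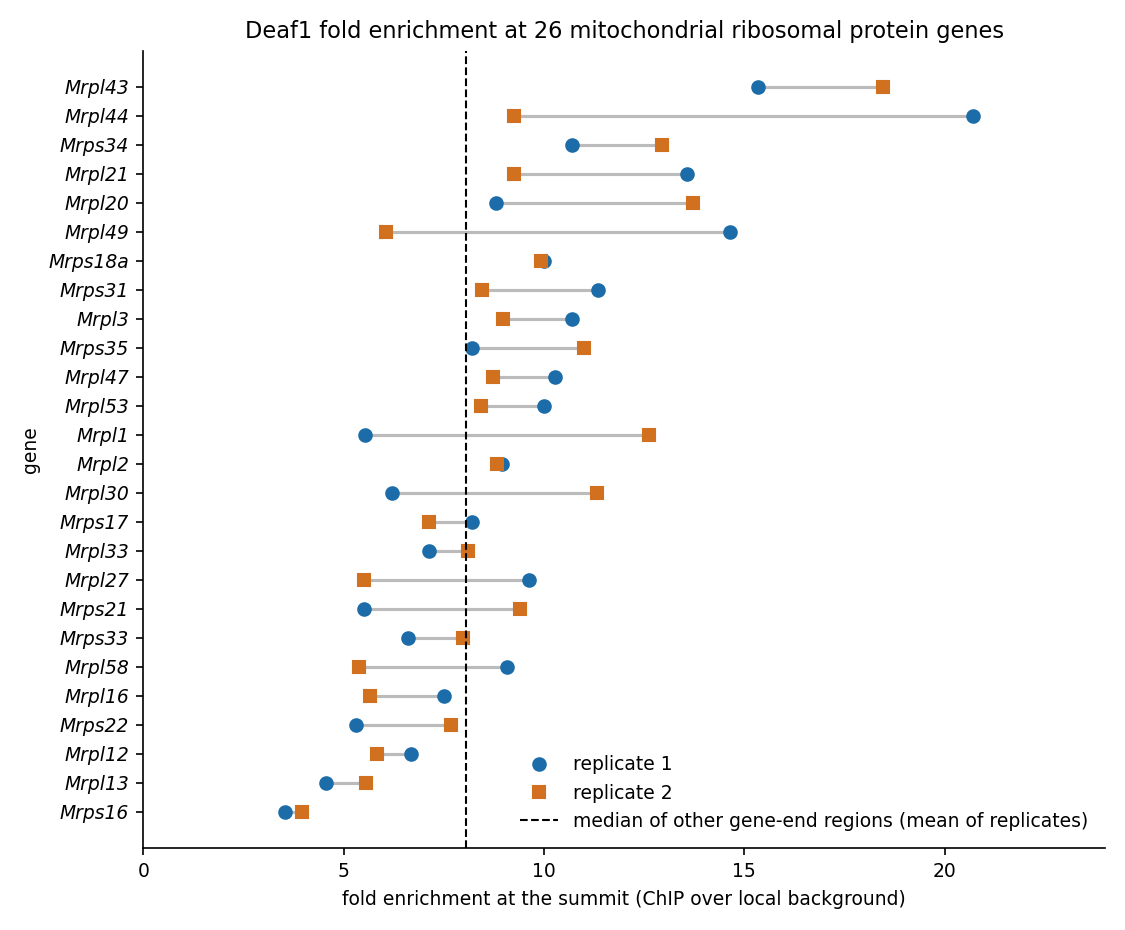
Fold enrichment at the summit (horizontal axis, ChIP over local background) at each of the 26 mitochondrial ribosomal protein genes with a reproducible Deaf1 region, in replicate 1 (circles) and replicate 2 (squares), ordered by the mean. The dashed line is the median of other gene-end regions, 8.04. Mrpl43 lies well above the line in both libraries, and Mrpl44 and Mrpl49 show the widest gaps between libraries.

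The libraries were compared by fragments and by fold at each of the 26 genes. The 95% exact Poisson intervals of the fragments overlapped at all 26 genes. The count was higher in replicate 2 at 22 of 26, the library with the higher genome-wide background (2.09 fragments against 1.80). The fold enrichment was nevertheless higher in replicate 1 at 14 genes and in replicate 2 at 12 (46.2%), whereas replicate 2 was higher at 65.0% of other gene-end regions. At 10 of the 26 the local background in replicate 2 was over 1.5 times that in replicate 1, and at 9 of these the fold was lower in replicate 2. At the remaining 16 genes the fold was lower in replicate 2 at 5. The background is the denominator of the fold, so these counts follow in part from the ratio itself. No matching counts are given for other gene-end regions, and what lies behind the 46.2% was not tested. Poisson intervals cover counting error only.

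**Figure D3:**
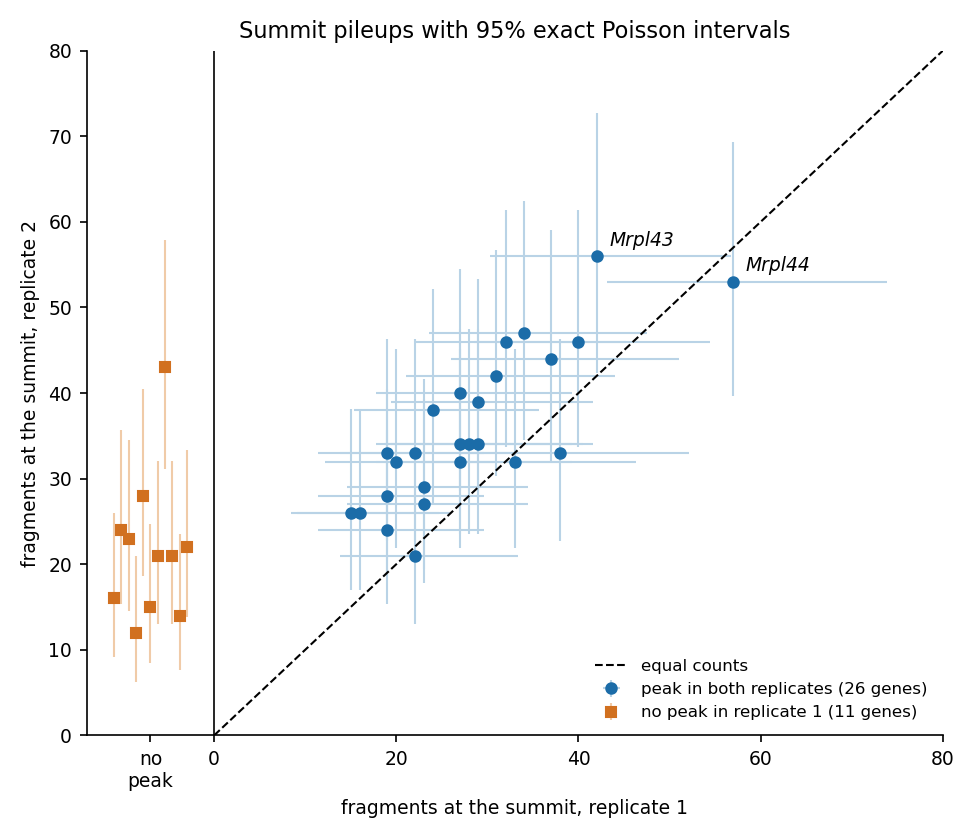
ChIP fragments at the summit in replicate 1 (horizontal axis) and replicate 2 (vertical axis), with 95% exact Poisson intervals as bars and equal counts as a dashed line. Circles are the 26 genes with a peak in both libraries, most of them above the line (22 of 26), and squares are the 11 genes with a peak only in replicate 2, which lie between 12 and 43 fragments.

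Another 11 genes had a peak in replicate 2 only (14.1% of the 78, against 4.15% of other genes), and none had one in replicate 1 only (0.468% of other genes). They were Mrpl14, Mrpl28, Mrpl34, Mrpl39, Mrpl40, Mrpl50, Mrpl51, Mrps10, Mrps18b, Mrps18c and Mrps30. Their summits were covered by a median of 21 fragments in replicate 2, close to the 20 at peaks of the same kind at other genes and below the 33.5 at the 26 genes with a reproducible region. Mrpl28 had the most fragments, 43 (31.1 to 57.9), and a fold enrichment of 9.04 on chromosome 17 from 26123348 to 26123546, yet no peak in replicate 1. Mrps30 had the highest fold of the 11, 9.39, from 28 fragments, and Mrpl34 and Mrpl14 had the lowest, 3.33 and 3.08. A protein-coding neighbour shared the peak at 8 of the 11: Zfp189 at Mrpl50, Helq at Mrps18c, Ncapd2 at Mrpl51, Abhd8 at Mrpl34, Hira at Mrpl40, Pgap6 at Mrpl28, Ppp1r10 at Mrps18b and Tmem63b at Mrpl14. Of all 78 genes, 56.4% have an end of another protein-coding gene within 1 kb of an end. The 8 are therefore not shown to be particular to these peaks. A peak that misses the list of replicate 1 is not shown to be absent there at this depth.

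The remaining 41 genes had no peak by the rule in either list. With an Mrpl symbol these were Mrpl4, Mrpl9, Mrpl10, Mrpl11, Mrpl15, Mrpl17, Mrpl18, Mrpl19, Mrpl22, Mrpl23, Mrpl24, Mrpl32, Mrpl35, Mrpl36, Mrpl37, Mrpl38, Mrpl41, Mrpl42, Mrpl45, Mrpl46, Mrpl48, Mrpl52, Mrpl54, Mrpl55 and Mrpl57. With an Mrps symbol they were Mrps2, Mrps5, Mrps6, Mrps7, Mrps9, Mrps11, Mrps12, Mrps14, Mrps15, Mrps23, Mrps24, Mrps25, Mrps26, Mrps27, Mrps28 and Mrps36. In the combined list, the genes nearest to the 1 kb limit were Mrps31 inside it at 820 bp and Mrpl18 outside it at 1424 bp. In replicate 2 a peak lay 1319 bp from an end of Mrpl24. Gene spans reach to the outermost transcript, so a start inside the span can be missed: at Mrps23 a reproducible region lay 7096 bp from the nearer span end, yet its summits were 26 and 39 bp before a listed start of the gene. The fold enrichment at Mrps23 was 5.54 in replicate 1 and 6.41 in replicate 2, from 24 fragments in each. The Mrpl18 region had 6.97 and 5.75, from 21 and 27 fragments, and was also within 1 kb of an end of Tcp1, a gene for a subunit of the cytosolic chaperonin. Peaks of replicate 2 also covered listed starts of Mrpl24 and Mrpl48. With listed starts in place of span ends, 25 of 69 genes with a listed start (36.2%) had a reproducible region, against 7.19% of other such genes.

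The peaks sat on the transcription starts. Of the 26 genes, 23 had a listed strand, and at all 23 the replicate 2 summit was nearer the 5′ than the 3′ end of the gene span. That count was not made for other genes, so it is not shown to be particular to these. Both summits were within 100 bp of a listed start at 21 of 23 (91.3%), with a median distance of 28 bp in replicate 1 and 26 bp in replicate 2. Counted instead as genes with a region within 1 kb of a listed start, which adds Mrpl18 and Mrps23, the summit of each library was within 100 bp at 22 of 25 (88%), with median distances of 28 and 29 bp. Among other genes counted that way, the summit was within 100 bp at 73.3% in replicate 1 and 71.7% in replicate 2, with median distances of 47 and 46 bp. The replicates placed their summits a median of 10 bp apart at the 26 genes, and at most 37 bp apart. The median was 11 bp at other gene-end regions. At Mrpl1 and Mrps31, whose span ends lay over 500 bp away, the summits were at -15 and -1 bp and at 23 and -2 bp from a listed start inside the span. Mrpl20 and Mrpl49 were the 2 genes beyond 100 bp. Both summits at Mrpl20 were inside the gene, 704 and 690 bp after the start, and those at Mrpl49 were 147 and 130 bp before it.

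**Figure D4:**
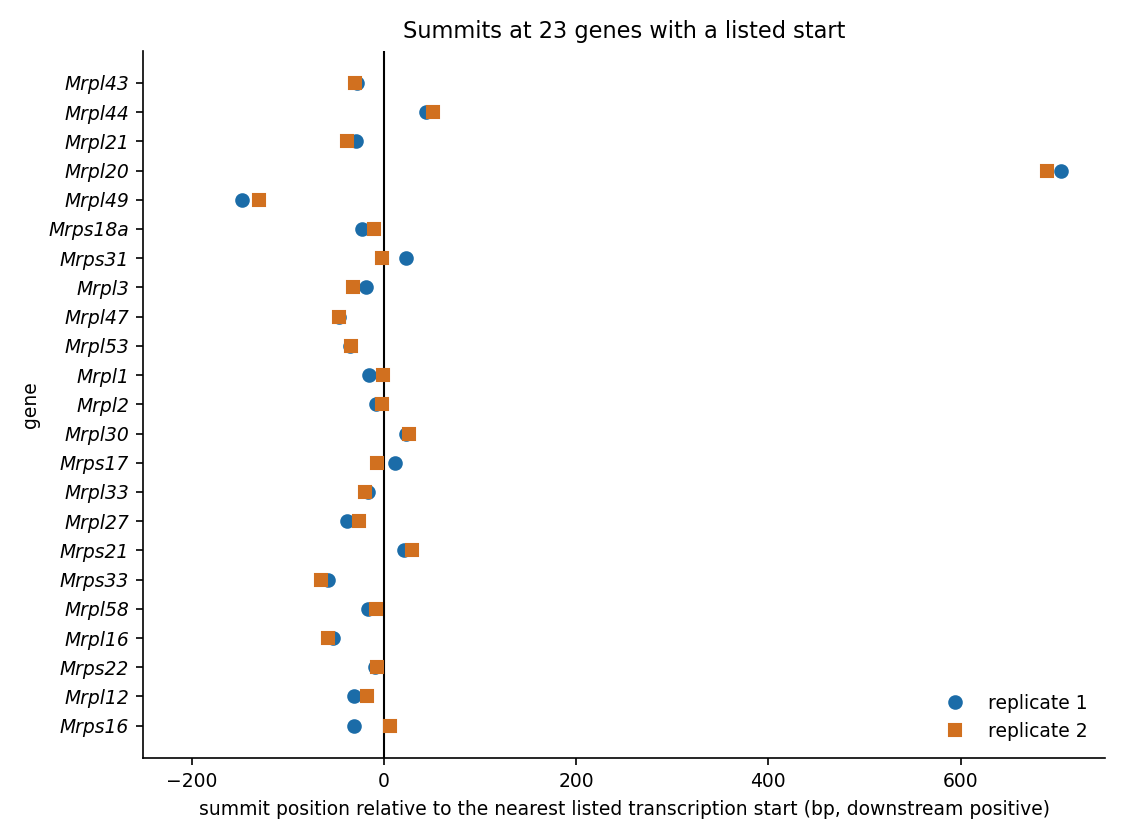
Position of the peak summit relative to the nearest listed transcription start (horizontal axis, bp, downstream positive, start at the vertical line) for the 23 genes with a listed start, in replicate 1 (circles) and replicate 2 (squares), ordered by mean fold enrichment. All genes but Mrpl20 and Mrpl49 lie within 100 bp of the start in both libraries.

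A neighbour shared the region at 13 of the 26 genes (50%), against 27.0% of other gene-end regions. Such a region cannot be given to 1 gene. These 13 neighbours are counted among the other genes in the shares above. Among all mitochondrial ribosomal protein genes, 56.4% have an end of another protein-coding gene within 1 kb of an end. A reproducible region lay at 34.1% of genes with such a neighbour and at 32.4% of genes without one. The 50% is therefore not shown to be particular to genes with a Deaf1 region. In 7 pairs the starts of both genes, on opposite strands, lay within 1 kb of the region: Mrpl21 with Ighmbp2, Mrpl49 with Fau, Mrpl47 with Ndufb5, Mrpl2 with Klc4, Mrpl30 with Mitd1, Mrpl27 with Eme1, and Mrpl43 with Twnk. Twnk encodes the helicase of mitochondrial DNA replication, and its start, which lies inside the Mrpl43 span, was 809 bp from the replicate 2 summit, against 30 bp for Mrpl43. Ndufb5 encodes a subunit of respiratory complex I and was 255 bp away, against 47 bp for Mrpl47. Fau, which encodes a cytosolic small-subunit ribosomal protein as a fusion, was the nearer gene at its region, 62 bp against 130 bp for Mrpl49. By span ends, Eme2 was nearer than Mrps34 (1 bp against 34 bp), and Ighmbp2 and Mrpl21 were about equally near (6 bp and 7 bp). Klc4 was nearer than Mrpl2 by span ends (46 bp against 63 bp), but the same summit lay 2 bp before a listed start of Mrpl2. The transcription end of Hgs lay 636 bp from the Mrpl12 summit and that of Cfap70 lay 562 bp from the Mrps16 summit. The other 3 shared regions lay at Mrpl44 with Wdfy1, Mrpl53 with Ccdc142 and Mrpl13 with Mtbp, and no strand was listed for these neighbours. The remaining 13 regions, among them those at Mrps18a, Mrps31, Mrpl3 and Mrps35, lay near the ends of no other protein-coding gene.

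The letters TTCG were not concentrated at these summits. TTCG stood, on either strand, in the promoters of 13 of 25 mitochondrial ribosomal protein genes with a region at a listed start (52.0%) and of 29 of 44 without one (65.9%). Over all 17492 protein-coding genes with a listed promoter of the same 300 bases the share was 49.0%. Among other genes the order was the opposite, with TTCG in 894 of 1253 promoters with a region (71.3%) and in 47.2% of those without one. TTCG contains CG, and the median CpG count of these promoters of other genes was 23 with a region and 12 without. For mitochondrial ribosomal protein genes the median CpG count was 20 with a region and 22.5 without. The part of CpG content in these orders was not tested. Within 25 bases of the midpoint between the 2 summits, 3 of 23 promoters that held that midpoint had TTCG (13.0%): Mrps21, Mrpl1 and Mrpl18. The density there was 0.256 per 100 bases, against 0.297 in the rest of the same promoters. Other genes with a region showed no higher density near the summit either, with 0.468 near the summit and 0.5 elsewhere over 942 promoters. TTCG stood near the summit in 193 of these 942 (20.5%). In promoters without a region, the same window was read around a fixed point 31 bases before the start. There TTCG stood in 7 of 44 mitochondrial ribosomal protein genes (15.9%) and in 15.3% of 6908 CpG-rich promoters of other genes. In the sequences printed above, the TTCG of Mrpl1 that begins 15 bases before the start is the one near its summits. The TTCG of Mrpl49 begins 65 bases before the start, well away from its summits.

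CGGAAG did cluster at the summits. These letters were taken up after all runs of 6 letters had been ranked, in genes without an Mrp name, by how much denser they were near summits than elsewhere in the same promoters. Promoters of neighbours under the regions of mitochondrial ribosomal protein genes were left out of that ranking. Of 185 runs that occurred at least 50 times near those summits, CGGAAG ranked the second, after the overlapping ACTTCC, and stood near 566 of 942 summits (60.1%), with 1.57 per 100 bases near the summit and 0.295 elsewhere. At mitochondrial ribosomal protein genes, which had no part in the ranking, CGGAAG stood within 25 bases of the summit in 13 of 23 promoters (56.5%). Its density was 1.71 per 100 bases near the summit and 0.227 elsewhere, a ratio of 7.52. The 13 genes were Mrpl1, Mrpl3, Mrpl16, Mrpl27, Mrpl33, Mrpl43, Mrpl47, Mrpl53, Mrpl58, Mrps16, Mrps18a, Mrps21 and Mrps22. ACTTCC, which ranked first, stood near 8 of the 23 summits (34.8%), against 432 of 942 summits of other genes (45.9%). In the printed sequences CGGAAG begins 31 bases before the start at Mrpl47, where both summits were 47 bp before the start, and 34 bases before the start at Mrpl1. Not all marked copies lie near a summit. Those at Mrps17 and Mrps33, which begin 115 and 16 bases before the start, are outside the window. So is the copy that begins 119 bases before the start at Mrps16. For scale, the same window around a fixed point 31 bases before the start was read in promoters without a region. It held CGGAAG in 9 of 44 mitochondrial ribosomal protein genes (20.5%) and in 8.32% of 6908 CpG-rich promoters of other genes. The ratio of the density near that point to that elsewhere was 4.07 in the 44 genes and 1.59 in the 6908 promoters. CGGAAG was thus denser near starts also without a region, and closeness to summits was not separated from closeness to starts. The longer CCGGAAG, which contains CGGAAG, stood anywhere in the promoter at 52.0% of the 25 genes with a region, 25% of the 44 without, and 11.9% of all promoters. GCGCA and GCGC with any 1 letter between them, a form of the palindrome that the mitochondrial regulator NRF1 is known to bind, stood in 4 of 25 (16.0%) and 9 of 44 (20.5%), against 6.66% of all promoters, and near none of the 23 summits. These matches are descriptions of letters and do not show which factor was on the DNA.

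Other genes of mitochondrial translation, taken from a list, also had a larger share with a Deaf1 region than the remaining genes. Of 46 listed genes 45 were found, and 10 of them (22.2%) had a reproducible region, against 6.86% of protein-coding genes outside both lists, with 11 (24.4%) by replicate 1 and 16 (35.6%) by replicate 2. At a score of at least 540 there were 7 (15.6%), a share close to the 15.4% of the Mrp-named genes. Among the 5 subunits of the mitochondrial ribosome without an Mrp symbol, only Aurkaip1 had one, with folds of 4.08 and 6.57. Dap3, Ptcd3, Chchd1 and Gadd45gip1 had no peak in either list. Of 25 factors for ribosome assembly and ribosomal RNA, 6 had a region (24%). The highest mean fold was at Ybey, a likely RNA endonuclease, at 14.7 ± 4.9 (SD, n = 2). Ngrn had 11.5 ± 6.6 (SD, n = 2) and Mettl17 had 11.4 ± 5.1 (SD, n = 2). Tfb1m, which methylates the small ribosomal RNA, had 9.93 ± 0.50 (SD, n = 2), Mrm3, which methylates the large one, 9.22 ± 2.53 (SD, n = 2), and Trub2 8.71 ± 6.45 (SD, n = 2). Of 15 translation factors found, 3 had a region (20%): Taco1, an activator of cytochrome oxidase translation, with 12.1 ± 3.9 (SD, n = 2), Tufm, the mitochondrial elongation factor Tu, with 7.41 ± 2.59 (SD, n = 2), and Slirp, an RNA-binding partner of Lrpprc, with 7.41 ± 3.31 (SD, n = 2). Lrpprc itself had no peak in either list. A protein-coding neighbour shared the region at 5 of the 10 genes, against 27.0% of all gene-end regions not at Mrp-named genes. The neighbours were Mcm3ap at Ybey, Ttll13 at Ngrn, Glod4 at Mrm3, Coq4 at Trub2, and Alkbh1 and Nrp at Slirp. Mrm2, Dhx30, Mtg2, Gtpbp10, Mpv17l2 and Gfm2 had a peak in replicate 2 only, and Malsu1 in replicate 1 only. The shares of this list were not compared within CpG-rich promoters or by close neighbours. The difference between this list and the Mrp-named genes was not tested.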

How the data were processed

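Mitochondrial ribosomal protein genes, the lists and the alternatives were chosen with earlier results of these data known. Per the submitters' processing notes, the tools were FastQC 0.11.8, BWA 0.7.17-r1198 and MACS2 2.1.2, with the build mm10; settings and filters are not given in the sources used here. The labels' protocols mention both formaldehyde fixation and native ChIP-seq, a conflict that could not be settled. The deposited fold of each peak is the authors' ratio of ChIP to local background, and the deposited p and q are −log10 values at the summit. The deposited score of the combined list follows the logarithm of the IDR, and its 6 unnamed columns of single samples were not used.

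Summit fragments and background were recovered as the whole number that fitted both the fold and the p (MACS2's formula), which 100% of 1860 and 3126 peaks allowed, with an error of at most 5.1e-05. On simulated data 100% of 1000 pileups were recovered. The median summit had 22 and 23 fragments. Where several peaks overlapped a region, the strongest of each replicate was used. Gene spans, starts and promoter sequences came from RefSeq (GRCm38.p6); 69 of 78 genes had a listed promoter, and the orientation of promoters was checked on 595 overlapping pairs, all reverse complements. No test was run: there is 1 group of 2 libraries, and gene counts are given beside the share of other genes. Genes with a region were all named, and the 12 strongest described singly. Sequences followed coverage of the promoter window. Python 3.11.15, numpy 2.4.6, pandas 2.3.3 and scipy 1.17.1 were used.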

Additional observations from a re-analysis of the deposited data

How the results depend on the processing

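The count of mitochondrial ribosomal protein genes with a reproducible region stayed within 1.5 times of 26 with a window of 500 bp (23) or 2 kb (27), with summits in place of whole regions (26), with whole gene spans (28) and with listed starts only (25), and the share of other genes stayed below it in each. The score moved it most: 12 genes at a score of at least 540 and 1 at a score of at least 830, where the share of other genes also went to 0.39%. Limiting the comparison to CpG-rich promoters left 17 of 55 genes, and to genes without a close neighbour 11 of 34; both were chosen after seeing the data, and the lower counts come with fewer genes compared. Without replicate 1 or 2 the count ran from 26 to 37, that of the other mitochondrial translation genes from 11 to 16, and the median fold enrichment from 8.59 to 8.88. At a score of at least 830 only 1 other translation gene was left. Regions shared with a neighbour went from 13 of 26 to 8 of 12 at a score of at least 540. The share of promoters with the letters went from 60.9% for TTCG (95% exact Clopper-Pearson interval 48.4% to 72.4%) to 27.5% for TTCGG and 4.35% for a pair of TTCG starting 6 to 11 bases apart, against 21.7% and 1.83% of other promoters. Counts of single-replicate peaks kept within 1.5 times under each of their alternatives. No paired analysis was possible because only the Deaf1 libraries, a single group, had values to compare. At 15 to 57 fragments per summit, counting error is too wide to order most of the 26 genes.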

Other observations

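Besides CGGAAG and its overlapping forms, the runs of letters that ranked highest near summits of other genes included ACGTCA, which is part of the palindrome that CREB and ATF factors are known to bind. It stood near 100 of 942 such summits (10.6%, density ratio 4.39) and near 4 of 23 summits at mitochondrial ribosomal protein genes (17.4%), where all 6 of its occurrences were near the summit and none elsewhere in the promoters. ACGTCA and its reverse complement overlap in that palindrome, so a single site can be counted on both strands. The 6 occurrences therefore need not be separate sites. The number of promoters is small, and the run was picked from the ranking after its values were seen.

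Regions at Mrpl27 and Mrps34 were shared with Eme1 and Eme2, which encode alternative partners of the Mus81 DNA endonuclease. The gene ends were 66 bp and 33 bp apart, and the fold enrichments were 9.63 and 5.49 at Mrpl27 and 10.7 and 13.0 at Mrps34 in replicates 1 and 2. This pair was noticed after its values were seen.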
